A study of Mus musculus with 8 samples.

Results

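Matrix metalloproteinases (Mmp), ADAMTS proteases (Adamts), ADAMTS-like proteins (Adamtsl) and tissue inhibitors of metalloproteinases (Timp) were followed by RNA sequencing in mouse NIH3T3 fibroblasts. The cells were labelled WT or Zmynd11 knockout (KO), and untreated (0 h) or given interferon-beta at 100 units/ml for 2 h. The level of Zmynd11 separated the time labels and not the genotype labels, so the groups are named only as labelled. The members were every gene symbol in the count tables made of Mmp and digits with an optional letter, Adamts and digits, Adamtsl and digits, or Timp and 1 digit. This gave 51 of 23304 genes: 23 Mmp, 19 Adamts, 5 Adamtsl and 4 Timp genes. Of the 51, 27 passed the filter on low counts, as did 12807 genes of the whole series. Between the 2 h and 0 h labels, 10 members were higher and 8 lower under both genotype labels, beside 24.6% and 26.3% of all tested genes. Over all tested genes 61.1% were called in the KO labels and 61.2% in the WT labels, so such counts say little about the family. The lower members included Timp1, Timp3, Mmp2, Adamts12, Adamts2 and Adamtsl4. The higher ones included Mmp14, Mmp11, Adamts6, Adamtsl5, Mmp3, Mmp10 and Mmp13. Of these, Adamts2, Mmp3, Mmp10 and Mmp13 passed the filter only through the time label where they were higher, which favours a difference. No member passed the test between the KO and WT labels at either time.

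Metalloproteinases of these families hold a zinc ion in the active site and cut proteins of the extracellular matrix. Most MMPs are secreted as inactive precursors, while membrane-type MMPs sit on the cell surface and can activate others, as the membrane protease Mmp14 does for the gelatinase precursor pro-Mmp2 with Timp2 as a bridge. ADAMTS enzymes are secreted and cleave proteoglycans or trim procollagens, ADAMTS-like proteins share their binding domains but have no protease domain, and TIMPs bind and block the active sites. Fibroblasts are a main source of Mmp2, Mmp14 and the TIMPs in connective tissue.

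The labels give 4 groups of 2 libraries, all from NIH3T3, an immortalised line of embryonic fibroblasts of Swiss albino origin grown with donor bovine serum. The groups are Zmynd11 CRISPR knockout cells given recombinant mouse interferon-beta at 100 units/ml for 2 h (KO 2 h), WT cells given the same (WT 2 h), untreated knockout cells (KO 0 h) and untreated WT cells (WT 0 h). Zmynd11 encodes a chromatin reader of methylated histone H3.3, and interferon-beta is a type I interferon. The edited position, the number of clones and any batch are not stated in the labels, whose extraction text speaks of embryonic fibroblasts. Whether the paired libraries under a label come from separate cultures is not said, so p-values measure the spread between them, which may be technical.

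Gene reads numbered 13671013 to 21299120 per library, and a single read was worth 0.0460 to 0.0700 CPM, the reads of a gene per 1e+06 reads of the scaled library. The level of Zmynd11 did not follow the genotype label: it was 3.31 and 4.69 CPM in the KO 2 h libraries, 3.18 and 3.61 in WT 2 h, 137 and 131 in KO 0 h, and 123 and 120.4 in WT 0 h. No KO against WT difference in Zmynd11 passed (edgeR adjusted p = 1 at 2 h and 0.364 at 0 h). It separated the time labels, so the groups are named only as labelled, every direction is one between labels, and a difference between 2 h and 0 h cannot be told apart from whatever else separates those libraries. Were the labels KO 0 h and WT 2 h exchanged, each 2 h against 0 h comparison would set knockout against WT cells, and each KO against WT comparison would set 2 h against 0 h. The labels and the genes examined here do not settle which holds, and interferon-response genes were not among them. The time and genotype readings of every value that follows thus cannot be told apart here. The library labelled KO 0 h replicate 2 stood apart in having reads for 17498 genes, against 14847 to 15945 in the other 7, and reads for 43 members, against 29 to 38. Fibroblast markers were abundant: 7 of 7 were tested, and their summed level was 7382 to 7781 CPM in KO 2 h, 7259 to 7713 in WT 2 h, 28215 to 29876 in KO 0 h and 31738 to 31775 in WT 0 h. The sum, carried mainly by Col1a1, Col1a2, Col3a1 and Vim, was lower under the 2 h labels, whereas Thy1 averaged 126 CPM in KO 2 h and 128 in WT 2 h, against 97.2 in KO 0 h and 106 in WT 0 h. The part of these markers in the results on the proteases was not tested. Markers of neutrophils summed to at most 0.216 CPM in any library, and those of epithelium to at most 5.30 CPM.

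The first pair of comparisons asks which of these genes differ between 2 h and 0 h within each genotype label. In KO 2 h against KO 0 h, 18 of the 27 tested members were called at an adjusted p below 0.05, 10 higher and 8 lower. In WT 2 h against WT 0 h, 20 were called, 11 higher and 9 lower. Over all tested genes 61.1% were called in KO 2 h against KO 0 h and 61.2% in WT 2 h against WT 0 h, so shares of 66.7% and 74.1% of members are near the background and say little about the family. Higher calls made up 30% and 30.1% of all genes in the KO and WT labels, and lower calls 31.2% and 31.1%. Of the members, 10 were higher (37%) and 8 lower (29.6%) in both comparisons, which share no library, beside 24.6% and 26.3% of all tested genes. Calls of at least 2-fold numbered 13 of 27 members in the KO labels and 14 in the WT labels, beside 19.1% and 19% of all tested genes. The median log2 fold change of the members was 0.11 in the KO labels and 0.02 in the WT labels, beside -0.01 and 0.01 over all tested genes. The 2 h and 0 h libraries of a genotype label did not overlap for 23 of 27 members in KO and 24 in WT. The same held for 77.5% and 82.6% of all tested genes, so a lack of overlap says little about the members named below. Adamts2, Mmp3, Mmp10, Mmp12, Mmp13, Mmp16 and Mmp23 had a group mean below 0.538 CPM, the level set by the filter, and so were tested only through the groups where they were higher. Of these, Adamts2, Mmp3, Mmp10 and Mmp13 are among the 2-fold calls under both genotype labels, and Mmp16 and Mmp23 among those in the WT labels. Their selection favoured a large fold, so the 2-fold counts cannot be read as a trait of the family.

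**Figure D1:**
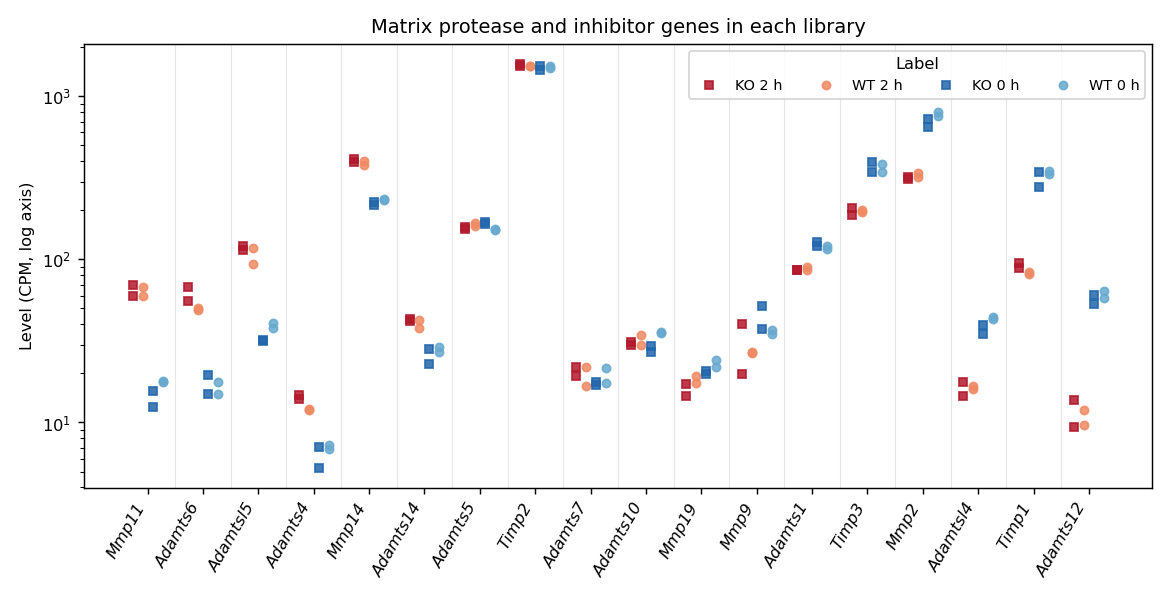
Level of the 18 members with a group mean of at least 5 CPM, in CPM on a log axis, with 1 point per library and 2 libraries per label. Genes run from the highest to the lowest log2 fold change of WT 2 h against WT 0 h; the red and orange points (2 h) lie above the blue ones (0 h) at the left and below them at the right, and the KO squares lie close to the WT circles.

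The inhibitors split between 2 genes that fell and 1 that did not pass. Timp1, which is secreted by fibroblasts and induced by serum and cytokines, stood at 94.4 and 89.1 CPM in the KO 2 h libraries, 81.9 and 83.6 in WT 2 h, 345 and 278 in KO 0 h, and 334 and 348 in WT 0 h. The 4 libraries of the 2 h labels were all lower than the 4 of the 0 h labels, with no overlap. Within a genotype label most tested genes showed no overlap between times either. On the log2 scale Timp1 fell by 1.76 in KO 2 h against KO 0 h (SE 0.09, edgeR adjusted p = 1.97e-13) and by 2.04 in WT 2 h against WT 0 h (SE 0.09, edgeR adjusted p = 1.49e-14). Timp3, the inhibitor that binds to the matrix itself and also blocks ADAM and ADAMTS enzymes, stood at 206 and 188 CPM in KO 2 h, 201 and 194 in WT 2 h, 345 and 395 in KO 0 h, and 383 and 344 in WT 0 h. Its groups did not overlap between times either, and it fell by 0.91 on the log2 scale in KO 2 h against KO 0 h (SE 0.08, edgeR adjusted p = 2.65e-09) and by 0.88 in WT 2 h against WT 0 h (SE 0.08, edgeR adjusted p = 4.72e-09).

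Timp2, the inhibitor that also takes part in pro-Mmp2 activation, kept a narrow range of levels. It stood at 1537 and 1575 CPM in KO 2 h, 1539 and 1525 in WT 2 h, 1536 and 1447 in KO 0 h, and 1488 and 1526 in WT 0 h. Neither comparison passed: its log2 fold change was 0.06 in KO 2 h against KO 0 h (95% interval -0.09 to 0.21, edgeR adjusted p = 0.477) and 0.02 in WT 2 h against WT 0 h (-0.12 to 0.17, edgeR adjusted p = 0.794). With libraries scaled by size alone, which moves the median of all genes by 0.15 in the KO labels and 0.14 in the WT labels, Timp2 was called higher at 0.21 and 0.16. Timp4, known from heart and brain, had 1 read in the 8 libraries. The TIMP group thus gave 2 lower, 0 higher and 1 not called of 3 tested genes under each genotype label. Over all tested genes 31.2% were called lower in the KO labels and 31.1% in the WT labels.

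The gelatinases cut denatured collagen and basement membrane collagen. Mmp2, the gelatinase made by most fibroblasts, stood at 309 and 321 CPM in KO 2 h, 318 and 338 in WT 2 h, 725 and 652 in KO 0 h, and 796 and 753 in WT 0 h. All 4 libraries of the 2 h labels lay below all 4 of the 0 h labels. It fell by 1.13 on the log2 scale in KO 2 h against KO 0 h (SE 0.08, edgeR adjusted p = 2.13e-11) and by 1.24 in WT 2 h against WT 0 h (SE 0.08, edgeR adjusted p = 4.32e-12).

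Mmp9, the gelatinase best known from macrophages and neutrophils, varied between the libraries of the KO labels. It stood at 19.8 and 40.4 CPM in KO 2 h, 26.9 and 26.8 in WT 2 h, 37.6 and 51.7 in KO 0 h, and 37.0 and 35.0 in WT 0 h. The KO 2 h and KO 0 h libraries overlapped, and neither comparison passed the test, at -0.59 in the KO labels (SE 0.29, edgeR adjusted p = 0.116) and -0.42 in the WT labels (SE 0.29, edgeR adjusted p = 0.253). Fitted on its 4 libraries alone, WT 2 h against WT 0 h gave -0.41 with an edgeR adjusted p of 0.000556, and it was also called without KO 2 h replicate 1 (0.00661) or KO 2 h replicate 2 (0.00706). Without the library labelled KO 2 h replicate 2, KO 2 h against KO 0 h gave -1.14 with an edgeR adjusted p of 4.66e-07, and with the replicate number as a block -0.61 with 0.018.

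The 6 macrophage markers found in the tables (Ptprc, Cd68, Emr1, Itgam, Csf1r and Lyz2) were tested and present at low levels, none at 0. Their summed level was 41.4 and 75.3 CPM in KO 2 h, 56.1 and 54.7 in WT 2 h, 46.4 and 72.4 in KO 0 h, and 36.2 and 36.8 in WT 0 h. In both KO groups the library with the higher Mmp9 was also the library with the higher marker sum, replicate 2. Between the WT labels the 2 went opposite ways. The marker sum was higher in both WT 2 h libraries than in both WT 0 h libraries, while Mmp9 was lower, at 26.9 and 26.8 against 37.0 and 35.0 CPM. Lyz2, the lysozyme of myeloid cells, made up 51.5 CPM of the sum in KO 2 h replicate 2 and 29.1 CPM in KO 2 h replicate 1. Of the 6 markers, 0 were higher and 1 lower in KO 2 h against KO 0 h, and 1 was higher and 0 lower in WT 2 h against WT 0 h. The part of these markers in the levels of Mmp9 was not tested. Fewer cells of a type and less RNA per cell cannot be told apart in bulk samples.

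**Figure D2:**
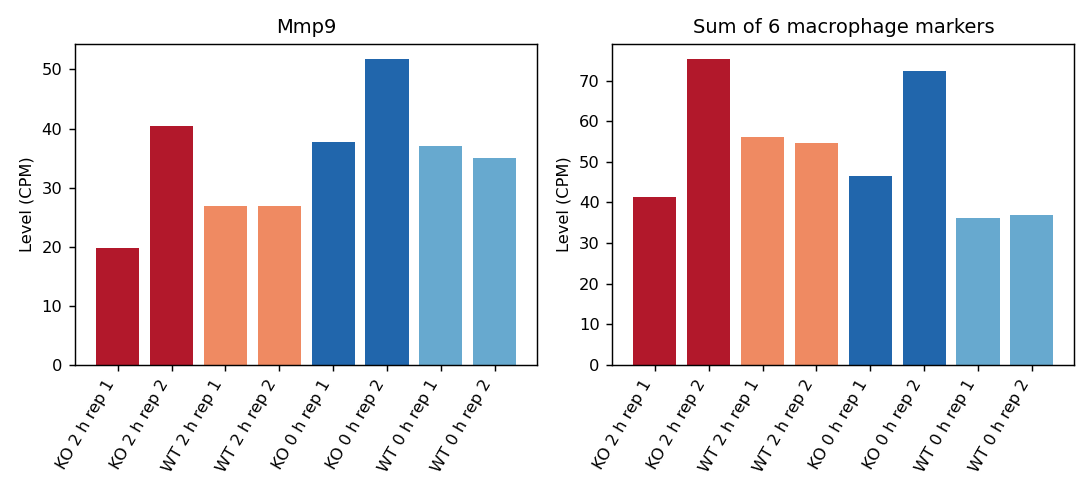
Level of Mmp9 (left) and summed level of 6 macrophage markers (right) in each of the 8 libraries, in CPM from 0, with bars coloured by label. In the KO groups replicate 2 is the higher bar in both panels (40.4 against 19.8 CPM of Mmp9 in KO 2 h), while the WT pairs are nearly level. From WT 0 h to WT 2 h the bars of Mmp9 are lower and those of the marker sum higher.

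Mmp14, the main membrane-type MMP of fibroblasts and an activator of pro-Mmp2, moved opposite to Mmp2. It stood at 415 and 395 CPM in KO 2 h, 378 and 404 in WT 2 h, 224 and 215 in KO 0 h, and 231 and 235 in WT 0 h. The 2 h and 0 h libraries did not overlap. It rose by 0.88 on the log2 scale in KO 2 h against KO 0 h (SE 0.07, edgeR adjusted p = 5.97e-10) and by 0.75 in WT 2 h against WT 0 h (SE 0.07, edgeR adjusted p = 8.4e-09). Of the other membrane-type genes, Mmp16 was near the limit of detection, with 0.315 CPM on average in KO 2 h and 0.0826 in WT 2 h, against 0.488 in KO 0 h and 0.833 in WT 0 h. Mmp16 was called lower in the WT labels, where 3 reads stood against 34 and the ratio was 10.1-fold with a counting interval of 3.19 to 51.6. The call was lost when either WT 2 h library was left out (edgeR adjusted p = 0.108 without replicate 1 and 0.0596 without replicate 2), and Mmp16 was called in the KO labels only without KO 2 h replicate 2 (0.0143). Mmp15, Mmp17, Mmp24 and Mmp25 were not tested, with 3 to 36 reads each over the 8 libraries.

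Of the stromelysins, Mmp11 (stromelysin-3) is known from stromal cells around tumours and is activated inside the cell. It stood at 69.5 and 59.9 CPM in KO 2 h, 59.7 and 68.1 in WT 2 h, 15.5 and 12.4 in KO 0 h, and 17.6 and 18.0 in WT 0 h. Both 2 h groups lay above both 0 h groups, and Mmp11 rose by 2.21 on the log2 scale in KO 2 h against KO 0 h (SE 0.12, edgeR adjusted p = 6.7e-13) and by 1.84 in WT 2 h against WT 0 h (SE 0.12, edgeR adjusted p = 5.79e-12).

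Mmp3, Mmp10 and Mmp13 were read almost only under the 2 h labels. Mmp3 (stromelysin-1), which activates other MMP precursors, had 48 and 45 reads in KO 2 h, 40 and 58 in WT 2 h, 0 and 0 in KO 0 h, and 0 and 2 in WT 0 h. Mmp10 (stromelysin-2) had 29 and 15 reads in KO 2 h, 25 and 14 in WT 2 h, 0 and 1 in KO 0 h, and none in WT 0 h. Mmp13 (collagenase-3), the main interstitial collagenase of rodents, had 26 and 16 reads in KO 2 h, 8 and 16 in WT 2 h, none in KO 0 h, and 2 and 0 in WT 0 h. For these 3 genes every library of the 2 h labels exceeded every library of the 0 h labels, at levels of only 0.432 to 3.22 CPM.

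Against a group without reads, folds were set against 3 reads summed over that group and are lower bounds. Mmp3 was at least 28.5-fold higher in KO 2 h than in KO 0 h, and in WT 2 h against WT 0 h its ratio was 54.8 (counting interval 14.8 to 459; edgeR adjusted p = 6.61e-07 in the KO labels and 7.92e-07 in the WT labels). Mmp10 had a ratio of 40.4 in KO 2 h against KO 0 h (6.88 to 1631) and was at least 14.5-fold higher in WT 2 h than in WT 0 h (edgeR adjusted p = 0.000175 and 4.91e-05). Mmp13 was at least 12.9-fold higher in KO 2 h than in KO 0 h, with a ratio of 13.4 (3.33 to 117) in WT 2 h against WT 0 h (edgeR adjusted p = 0.000112 and 0.00385). The call of Mmp13 in the WT labels was lost without WT 0 h replicate 2 (edgeR adjusted p = 0.071) and without WT 2 h replicate 2 (0.0708). Intervals and bounds cover counting error only, since duplicated fragments are not independent molecules. Mmp3, Mmp10 and Mmp13 passed the low-count filter only through the 2 h labels. Their selection thus favoured a difference, and the adjusted p values add no separate support.

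**Figure D3:**
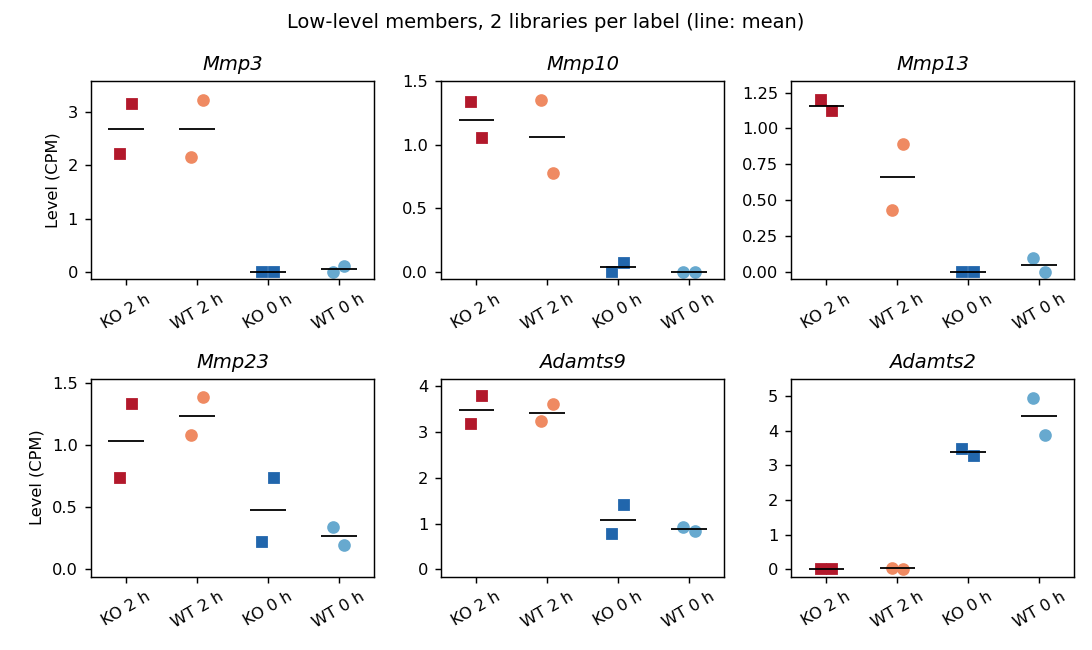
Level in CPM of 6 members with group means below 5 CPM, with 1 point per library and a line at the mean of the 2 libraries of a label. Mmp3, Mmp10 and Mmp13 lie at or near 0 in all 0 h libraries and at 0.432 to 3.22 CPM in the 2 h libraries; Adamts2 has the opposite pattern, at 3.27 to 4.93 CPM under the 0 h labels.

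These 3 genes lie in a run of 10 Mmp genes on chromosome 9, in the order Mmp13, Mmp12, Mmp1b, Mmp3, Mmp1a, Mmp10, Mmp8, Mmp27, Mmp20 and Mmp7, with no other protein-coding gene between them in the RefSeq table of GRCm38.p6. The whole run had 113 and 92 reads in KO 2 h, 94 and 100 in WT 2 h, 7 and 19 in KO 0 h, and 7 and 6 in WT 0 h. Without Mmp3, Mmp10 and Mmp13 the remaining 7 genes had 10 and 16 reads in KO 2 h, 21 and 12 in WT 2 h, 7 and 18 in KO 0 h, and 5 and 4 in WT 0 h, so the difference between times lay mostly in the 3. Mmp1a and Mmp1b are close copies of each other, and reads with several alignments were held apart from the genes. Their 2 and 13 reads may thus be too few, or split wrongly. Mmp7, the matrilysin of epithelia, had no read in any library. Stretches just before the annotated starts are printed because AP-1 (Fos and Jun) sites there are the best-known control elements of stromelysin and collagenase genes. Each line gives 120 bases that end at the base before the annotated start, 5′ to 3′ on the plus strand, from RefSeq on GRCm38.p6, a later build than the mm9 named for the counts. Capitals mark TGACTCA on either strand (TGAGTCA when read from the other strand) and TATAAA on either strand.
Mmp3, chr9:7445702-7445821: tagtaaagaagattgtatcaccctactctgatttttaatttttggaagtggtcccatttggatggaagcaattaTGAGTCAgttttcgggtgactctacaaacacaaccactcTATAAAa
Mmp10, chr9:7502222-7502341: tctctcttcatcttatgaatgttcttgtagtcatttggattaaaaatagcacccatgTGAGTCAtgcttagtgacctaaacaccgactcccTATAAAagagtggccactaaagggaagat
Mmp13, chr9:7272394-7272513: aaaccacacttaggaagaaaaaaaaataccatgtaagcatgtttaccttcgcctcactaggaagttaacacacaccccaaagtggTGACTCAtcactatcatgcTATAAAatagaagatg
Mmp14, chr14:54431478-54431597: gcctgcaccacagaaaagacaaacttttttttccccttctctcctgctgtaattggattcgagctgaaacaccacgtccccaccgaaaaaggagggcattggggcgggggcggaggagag
Timp1, chrX:20870046-20870165: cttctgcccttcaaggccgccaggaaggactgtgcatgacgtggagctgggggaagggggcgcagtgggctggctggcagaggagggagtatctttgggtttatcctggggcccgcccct

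The AP-1 letters stood at positions -46 to -40 from the start in Mmp3, -63 to -57 in Mmp10 and -35 to -29 in Mmp13. Each was followed by TATAAA, at -7 to -2, -29 to -24 and -16 to -11, whereas the stretches of Mmp14 and Timp1 held neither. Mmp12, called in neither time comparison, held the AP-1 letters at -44 to -38 from an annotated start, without TATAAA. Its stretches are not printed. The bases just after the start were found in no GENCODE M21 transcript of Mmp10 or Mmp14, so the positions are approximate. In the 250 bases before the start, TGACTCA on either strand was found in 7 of the 36 members with an entry in the table (19.4%) and in 4.46% of 32851 promoters. The 7 were Mmp1a, Mmp1b, Mmp3, Mmp7, Mmp10, Mmp12 and Mmp13, all within the run on chromosome 9. They include Mmp7, with no read, Mmp1a, with 2 reads, and Mmp12, which was called in neither time comparison. TATAAA was found in 10 of the 36 (27.8%) and in 12.4% of all promoters. TTCNNNGAA, the spacing bound by Stat dimers, was found in 1 of the 36, Mmp23, and in 7.02% of all promoters. A match is a description of the letters and not evidence of binding, and the part of these letters in the levels was not tested.

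Among the remaining MMPs, Mmp19, a secreted MMP of many tissues, stood at 17.1 and 14.6 CPM in KO 2 h, 17.4 and 19.2 in WT 2 h, 19.9 and 20.6 in KO 0 h, and 24.1 and 21.8 in WT 0 h. It was called lower in KO 2 h against KO 0 h (-0.35, SE 0.13, edgeR adjusted p = 0.0259) and in WT 2 h against WT 0 h (-0.33, SE 0.13, edgeR adjusted p = 0.028). Both calls were lost with libraries scaled by size alone (edgeR adjusted p = 0.208 and 0.212) and in DESeq2 (adjusted p = 0.0597 and 0.0639). Leaving out KO 2 h replicate 2 or either KO 0 h library ended the KO call (edgeR adjusted p = 0.071 to 0.225), and leaving out either WT 2 h library or WT 0 h replicate 1 ended the WT call (0.0579 to 0.242). Fitted on the 4 KO libraries alone, the KO value was -0.32 with an edgeR adjusted p of 0.0662. Exons of Tmem198b on the other strand cover 22.8% of the merged exons of Mmp19 in GENCODE M21. The use of strand is not given, so how reads from the shared stretch were counted is not known. Mmp23, an MMP with an unusual domain order, averaged 1.03 ± 0.421 CPM in KO 2 h and 1.23 ± 0.219 in WT 2 h, against 0.478 ± 0.364 in KO 0 h and 0.269 ± 0.103 in WT 0 h (SD, n = 2 each). It rose in WT 2 h against WT 0 h (2.17, SE 0.65, edgeR adjusted p = 0.00561), a call lost without WT 0 h replicate 2 (0.0819) and without WT 2 h replicate 2 (0.0587), and did not pass in the KO labels (1.11, SE 0.64, edgeR adjusted p = 0.134), where it was called without KO 0 h replicate 2 (2.14, edgeR adjusted p = 0.0377). Mmp28 (epilysin) at 2.97 to 4.37 CPM and Mmp12, the macrophage elastase, at 0.138 to 0.936 CPM in the 8 libraries were not called in either comparison. The log2 fold changes of Mmp28 were 0.21 in the KO labels and -0.000624 in the WT labels, and those of Mmp12 -1.31 and 1.77, of which the WT value was called without WT 2 h replicate 2 (edgeR adjusted p = 0.0464). Exons on the other strand also overlap 12.3% of Mmp28, 5.29% and 2.07% of Adamts9 (2 genes), 3.94% of Mmp12 and 2.13% of Adamts7.

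Proteoglycan-cleaving ADAMTS enzymes moved in both directions. Adamts1, the first enzyme of the family to be described and a versican-cleaving protease, stood at 86.5 and 85.6 CPM in KO 2 h, 89.3 and 86.6 in WT 2 h, 121 and 128 in KO 0 h, and 116 and 120.1 in WT 0 h. Its groups did not overlap between times, and it fell by 0.54 on the log2 scale in the KO labels (SE 0.08, edgeR adjusted p = 3.4e-06) and by 0.43 in the WT labels (SE 0.08, edgeR adjusted p = 6.03e-05). Adamts4 (aggrecanase-1) stood at 14.8 and 14.0 CPM in KO 2 h, 12.03 and 12.005 in WT 2 h, 7.12 and 5.28 in KO 0 h, and 7.28 and 6.88 in WT 0 h. It rose by 1.21 (SE 0.17, edgeR adjusted p = 1.66e-06) and by 0.76 (SE 0.16, edgeR adjusted p = 0.00032) in the KO and WT labels. Adamts9, which cleaves versican and aggrecan, rose as well, averaging 3.48 ± 0.432 CPM in KO 2 h and 3.43 ± 0.265 in WT 2 h, against 1.09 ± 0.446 in KO 0 h and 0.882 ± 0.0657 in WT 0 h, with log2 fold changes of 1.69 (SE 0.36, edgeR adjusted p = 0.000326) and 1.95 (SE 0.36, edgeR adjusted p = 5.81e-05).

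Adamts5 (aggrecanase-2), an enzyme of cartilage breakdown, was not called. It stood at 154 and 158 CPM in KO 2 h, 161 and 168 in WT 2 h, 170.3 and 165 in KO 0 h, and 153 and 151 in WT 0 h. The libraries did not overlap within either genotype label, but in opposite directions and by small amounts, at -0.11 in the KO labels (edgeR adjusted p = 0.224) and 0.12 in the WT labels (edgeR adjusted p = 0.17). The difference between these changes was -0.22 (SE 0.10, edgeR adjusted p = 0.379). With libraries scaled by size alone the WT value was called at 0.26. Adamts20 was not tested, and its 11 and 8 reads in KO 2 h stood against 0 and 1 in KO 0 h, a ratio of 17.4 with a counting interval of 2.77 to 725. In the WT labels 11 reads at 2 h stood against 2 at 0 h, a ratio of 6.15 with a counting interval of 1.34 to 57.1.

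The procollagen N-proteinases remove the amino-terminal propeptide of fibrillar collagens. Adamts2, the main enzyme of this step for type I collagen, had 0 reads in both KO 2 h libraries, 1 and 0 in WT 2 h, 63 and 49 in KO 0 h, and 101 and 79 in WT 0 h. No 2 h library overlapped a 0 h library. The gene passed the low-count filter only through the 0 h labels, so its selection favoured a difference. Adamts2 was at least 40.7-fold lower in KO 2 h than in KO 0 h (edgeR adjusted p = 2.01e-08), and in WT 2 h against WT 0 h the level was lower with a ratio of 161 (counting interval 28.5 to 6397; edgeR adjusted p = 6.77e-09).

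Adamts14, a second procollagen N-proteinase, moved the other way, and no library overlapped between times. It stood at 43.0 and 42.0 CPM in KO 2 h, 37.8 and 42.4 in WT 2 h, 28.0 and 22.9 in KO 0 h, and 29.1 and 26.9 in WT 0 h. It rose by 0.73 on the log2 scale in the KO labels (SE 0.11, edgeR adjusted p = 7.04e-06) and by 0.52 in the WT labels (SE 0.11, edgeR adjusted p = 0.000342). Adamts3, the third, had 9 reads in all, each of them in KO 0 h replicate 2, the library that stood apart.

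Adamts12 and Adamts7 cleave cartilage oligomeric matrix protein. Adamts12 stood at 13.7 and 9.39 CPM in KO 2 h, 9.61 and 11.9 in WT 2 h, 60.5 and 53.5 in KO 0 h, and 58.0 and 64.1 in WT 0 h. The 2 h and 0 h labels were far apart, and Adamts12 fell by 2.28 on the log2 scale in the KO labels (SE 0.14, edgeR adjusted p = 6.96e-12) and by 2.51 in the WT labels (SE 0.14, edgeR adjusted p = 1.47e-12). Adamts7 stood between 16.8 and 21.9 CPM in all 8 libraries and did not pass, at 0.25 in the KO labels (edgeR adjusted p = 0.144) and -0.01 in the WT labels (edgeR adjusted p = 0.952). With libraries scaled by size alone its KO value was called at 0.40.

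Adamts6, an enzyme related to Adamts10 that acts on fibrillin-rich matrix, rose without overlap between times. It stood at 68.0 and 55.7 CPM in KO 2 h, 49.2 and 50.1 in WT 2 h, 14.9 and 19.4 in KO 0 h, and 14.95 and 17.8 in WT 0 h. It rose by 1.86 on the log2 scale in the KO labels (SE 0.13, edgeR adjusted p = 3.23e-11) and by 1.60 in the WT labels (SE 0.13, edgeR adjusted p = 3.25e-10). Adamts10, which binds fibrillin microfibrils, ranged from 27.1 to 36.0 CPM and did not pass, at 0.11 in the KO labels and -0.15 in the WT labels (edgeR adjusted p = 0.405 and 0.227). Scaled by size alone, its KO value was called at 0.26.

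The ADAMTS-like proteins bind microfibrils without cutting them. Adamtsl5 stood at 121 and 113 CPM in KO 2 h, 93.5 and 118 in WT 2 h, 31.5 and 31.9 in KO 0 h, and 38.2 and 40.6 in WT 0 h. It rose by 1.89 on the log2 scale in the KO labels (SE 0.10, edgeR adjusted p = 6.07e-13) and by 1.42 in the WT labels (SE 0.10, edgeR adjusted p = 3.61e-11). Adamtsl4, which promotes fibrillin deposition and is needed for the anchoring of the eye lens, was lower in each 2 h library than in any 0 h library. It stood at 14.6 and 17.6 CPM in KO 2 h, 16.03 and 16.8 in WT 2 h, 35.0 and 39.5 in KO 0 h, and 42.9 and 44.5 in WT 0 h. It fell by 1.22 on the log2 scale in the KO labels (SE 0.12, edgeR adjusted p = 9.09e-09) and by 1.41 in the WT labels (SE 0.12, edgeR adjusted p = 5.64e-10).

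**Figure D4:**
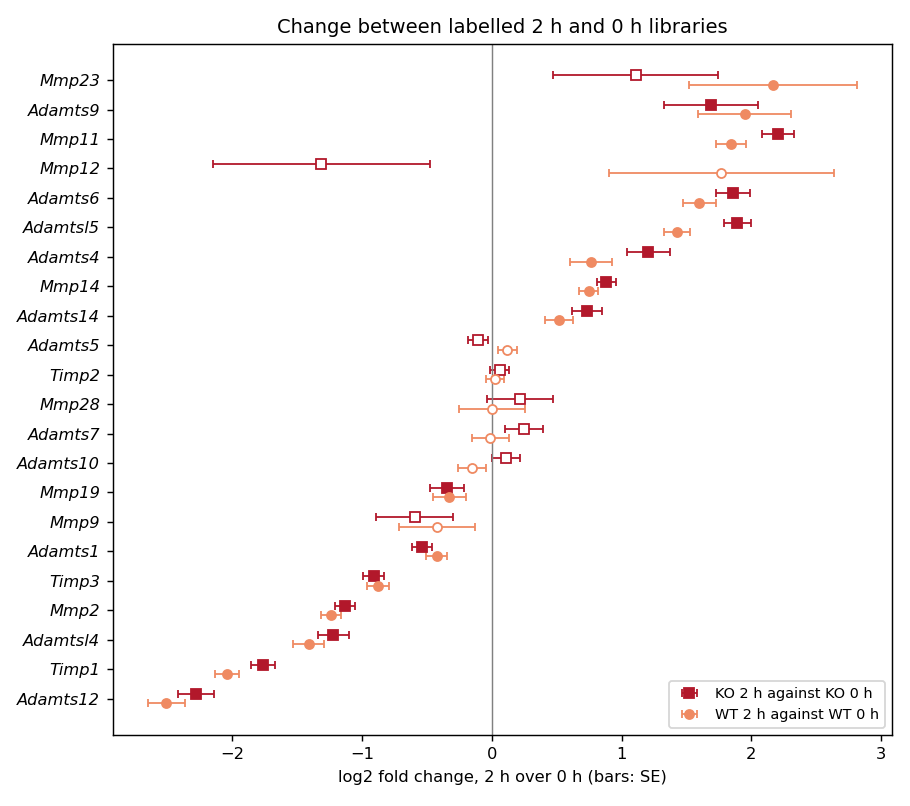
Log2 fold change of 2 h over 0 h with its SE for the 22 tested members with more than 3 reads in each group, KO labels as red squares and WT labels as orange circles; filled points passed the edgeR test at an adjusted p below 0.05. Adamts12 lies lowest (-2.28 in KO and -2.51 in WT), Mmp11 (2.21 in KO and 1.84 in WT) lies near the top, and no member called under both labels changes sign.

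Levels of different genes were set side by side as CPM per kb of merged exon (GENCODE M21, 1 gene per symbol). On that scale Timp2 was the most abundant member in KO 2 h (419 ± 7.20) and WT 2 h (413 ± 2.71), and it stood at 402 ± 16.9 in KO 0 h and 406 ± 7.21 in WT 0 h (SD, n = 2 each). Timp1 came next in the 0 h labels, with 351 ± 54.0 CPM per kb in KO 0 h and 384 ± 11.0 in WT 0 h. In the 2 h labels Timp1 (103 ± 4.20 in KO 2 h and 93.2 ± 1.33 in WT 2 h) stood close to Mmp2 (102 ± 2.77 and 107 ± 4.55) and Mmp14 (96.8 ± 3.36 and 93.5 ± 4.34), and the order of these 3 was not the same under both genotype labels. In the 0 h labels Mmp2 exceeded Mmp14, with 224 ± 16.7 against 52.5 ± 1.60 CPM per kb in KO 0 h and 252 ± 9.89 against 55.7 ± 0.674 in WT 0 h. Merged exons of a later annotation than the one behind the counts were used, so these levels are approximate.

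The second pair of comparisons sets the KO label against the WT label at each time. In KO 2 h against WT 2 h, 0 of 27 tested members were called, with 1.6% of all tested genes called, 1.59% higher and 0.00781% lower, and 1 member had an unadjusted p below 0.05 in edgeR, while DESeq2 also called 0. In KO 0 h against WT 0 h, 0 of 27 were called, beside 3.92% of all tested genes, 2.65% higher and 1.27% lower, and 6 had an unadjusted p below 0.05 in edgeR, with 0 again called by DESeq2. Over the 18 members with a group mean of at least 5 CPM, log2 fold changes ran from -0.20 (Mmp19) to 0.32 (Adamts6) at 2 h and from -0.34 (Mmp11) to 0.31 (Mmp9) at 0 h. The 95% intervals of these 18 genes reached from -0.57 to 0.83 at 2 h and from -0.61 to 0.97 at 0 h, and both upper ends were those of Mmp9. At 0 h 13 of these 18 genes had a log2 fold change below 0, and at 2 h 7 did. Over the 27 tested members the median was 0.02 at 2 h and -0.13 at 0 h, beside -0.01 and 0.01 over all tested genes. With genes lacking reads in a group set at their bound, or left out where both groups had at most 3 reads, the members' medians were 0.04 over 26 genes at 2 h and -0.11 over 24 at 0 h. A missed threshold does not show that the labels were alike.

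**Figure D5:**
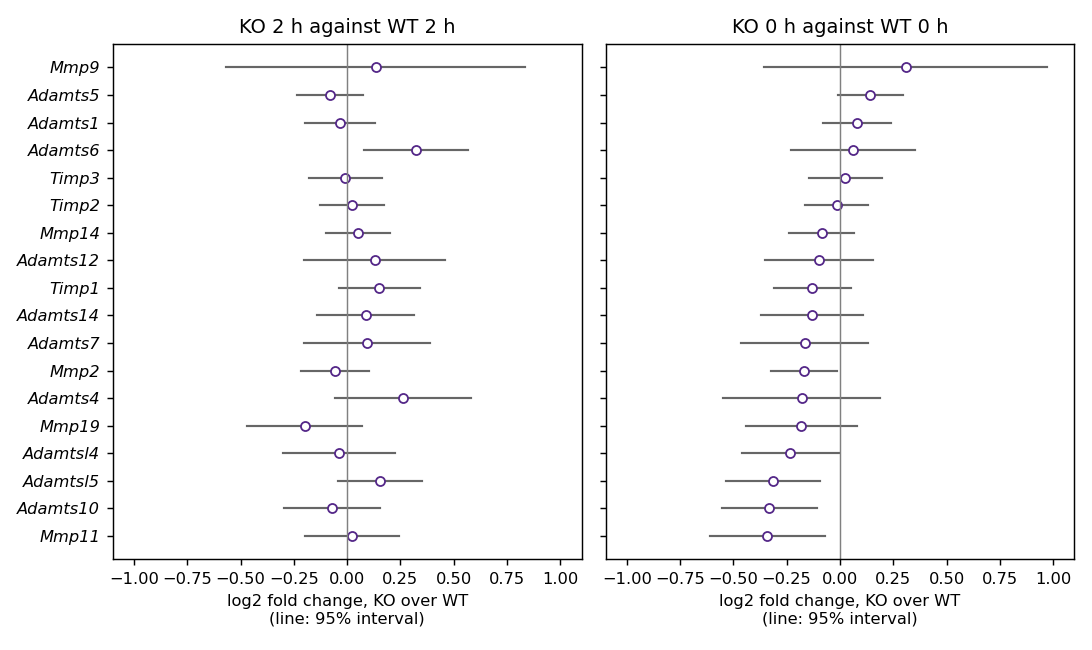
Log2 fold change of KO over WT at 2 h (left) and 0 h (right) for the 18 members with a group mean of at least 5 CPM; the line is the 95% interval and open points did not pass the edgeR test. All values lie between -0.34 and 0.32, and the widest interval belongs to Mmp9.

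At 0 h the smallest adjusted p values belonged to Adamts10 (log2 fold change -0.33, SE 0.11, edgeR adjusted p = 0.0832), Adamtsl5 (-0.31, SE 0.11, edgeR adjusted p = 0.0966) and Mmp11 (-0.34, SE 0.13, edgeR adjusted p = 0.139). For each of them the KO 0 h libraries lay below the WT 0 h libraries without overlap. Libraries did not overlap for 13 of the 27 tested members at 0 h, beside 51.5% of all tested genes, and for 8 at 2 h, beside 29.7%. Without KO 0 h replicate 1, when the KO 0 h label rests on replicate 2, 4 members were called lower in KO 0 h: Mmp11 (-0.56), Adamts10 (-0.44), Timp1 (-0.34) and Mmp2 (-0.29), with edgeR adjusted p values of 0.0275, 0.0418, 0.0138 and 0.0308. At 2 h the smallest adjusted p was that of Adamts6 (0.32, SE 0.12, edgeR adjusted p = 0.436), whose KO libraries, at 68.0 and 55.7 CPM, both exceeded the WT libraries, at 49.2 and 50.1 CPM. Without KO 2 h replicate 1, Mmp9 was called higher in KO 2 h (0.58, edgeR adjusted p = 0.0431).

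The interaction asks whether the change between 2 h and 0 h differs between the genotype labels, as KO change minus WT change. It called 0 of 27 members, beside 0.133% of all tested genes, 0.0547% higher and 0.0781% lower, and 5 members had an unadjusted p below 0.05 in edgeR, while DESeq2 also called 0. The median over the members was 0.19, beside -0.01 over all tested genes. The smallest adjusted p was 0.219, for Adamtsl5 (0.47, SE 0.14). Timp1 gave 0.28 (SE 0.13, edgeR adjusted p = 0.367) and Mmp11 0.36 (SE 0.17, edgeR adjusted p = 0.376). Without KO 0 h replicate 1, Timp1 was called at 0.49 (edgeR adjusted p = 0.0351). For genes without reads in a group, such as Mmp3 and Mmp13, no interaction value is given.

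Other genes that act with these enzymes were counted in the same comparisons, with p adjusted over all genes. Each of these genes named below passed edgeR at an adjusted p below 0.05 in the comparison given, and a gene given under 1 genotype label may also have passed under the other. Over all tested genes 30% were called higher and 31.2% lower in the KO labels, and 30.1% and 31.1% in the WT labels. The count of each list is to be read beside these shares, and no list was tested as a set. Serpinb2, Mep1a and Spock2 had means below 0.538 CPM, the level set by the filter, in both 0 h groups. They were tested only through the 2 h labels where they were higher, so their selection favoured a difference. Of 8 tested genes of plasminogen activation, the protease system that helps to activate MMPs, 3 were higher and 4 lower under each genotype label, with medians of -0.30 in KO 2 h against KO 0 h and -0.43 in WT 2 h against WT 0 h. Serpinb2, an inhibitor of urokinase, averaged 37.1 ± 1.52 CPM in KO 2 h and 31.9 ± 2.51 in WT 2 h, against 0.222 ± 0.158 in KO 0 h and 0.171 ± 0.0339 in WT 0 h (SD, n = 2 each), log2 fold changes of 7.41 (SE 0.26) and 7.48 (SE 0.26). Plat, the tissue-type plasminogen activator, fell by 1.27 (SE 0.12) and by 1.23 (SE 0.12) in the KO and WT labels. S100a10, a cell-surface binder of plasminogen, fell by 1.2 (SE 0.09) and by 1.24 (SE 0.08).

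Of 10 ADAM genes, whose membrane proteins include proteases that release ectodomains, 3 were higher and 6 lower in the KO labels. In the WT labels 3 were higher and 4 lower. Adam12, whose product is typical of activated mesenchymal cells, averaged 5.50 ± 1.64 CPM in KO 2 h and 5.62 ± 0.543 in WT 2 h, against 42.0 ± 4.55 in KO 0 h and 43.3 ± 3.57 in WT 0 h. On the log2 scale it fell by 2.89 (SE 0.16) in the KO labels and fell by 2.94 (SE 0.16) in the WT labels. Adam23 fell by 2.41 (SE 0.11) in the KO labels and by 2.47 (SE 0.11) in the WT labels. Adam22 and Adam33 rose by 1.68 (SE 0.18) and 1.31 (SE 0.42) in the KO labels and by 1.53 (SE 0.17) and 1.24 (SE 0.41) in the WT labels.

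Of 10 cathepsins and related proteases 6 were higher and 0 lower under each genotype label, with medians of 0.77 in the KO labels and 1.05 in the WT labels. Higher calls covered 30% of all tested genes in the KO labels and 30.1% in the WT labels, and lower calls 31.2% and 31.1%. The list was not tested as a set. Ctsa, a lysosomal carboxypeptidase, averaged 410.4 ± 0.991 CPM in KO 2 h and 397 ± 13.8 in WT 2 h, against 109 ± 10.1 in KO 0 h and 129.9 ± 1.01 in WT 0 h, and Ctso rose by 2.20 (SE 0.17) and 1.75 (SE 0.16). Among 3 tested procollagen C-proteinases and helpers 2 were higher in both labels, with 0 lower in the KO labels and 1 lower in the WT labels. Bmp1, the procollagen C-proteinase, rose by 0.95 (SE 0.08) and 0.66 (SE 0.08), and Pcolce, its enhancer, fell by 0.22 in the WT labels (SE 0.08). Mep1a, a meprin subunit, had no reads in either 0 h label and was at least 11.9-fold and 20.9-fold higher in KO 2 h and WT 2 h. Mep1a was tested only through those 2 h labels, so its selection favoured a difference.

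Of 8 activators and cofactors of MMPs, 4 were higher and 1 lower in the KO labels and 4 higher and 2 lower in the WT labels. The tetraspanin Cd151 rose by 1.21 (SE 0.08) and 1.08 (SE 0.08), the collagen receptor Ddr1 rose by 0.56 (SE 0.09) and 0.33 (SE 0.09), and its relative Ddr2 fell by 0.61 (SE 0.07) and by 0.55 (SE 0.07). The convertase Pcsk7 fell by 0.53 in the WT labels (SE 0.13). Of 7 other inhibitors and clearance receptors, 3 were higher and 1 lower in the KO labels and 3 higher and 2 lower in the WT labels. Cst3, the cathepsin inhibitor cystatin C, rose by 1.24 in the KO labels (SE 0.08), Pzp, a relative of alpha-2-macroglobulin, rose by 1.25 in the WT labels (SE 0.46), and the proteoglycan Spock2 was higher under both 2 h labels, with a ratio of 13.3 in the KO labels (counting interval 3.37 to 115) and a log2 fold change of 2.73 in the WT labels (SE 0.74). Col18a1, the source of endostatin, fell by 1.53 (SE 0.26) in the KO labels and fell by 2.28 (SE 0.26) in the WT labels, and the collagen uptake receptor Mrc2 fell by 0.42 in the WT labels (SE 0.09).

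Of 9 proteoglycan and glycoprotein substrates, 3 were higher and 5 lower in the KO labels and 2 higher and 4 lower in the WT labels. Decorin (Dcn) averaged 43.8 ± 3.54 CPM in KO 2 h and 46.3 ± 0.50 in WT 2 h, against 159.6 ± 15.3 in KO 0 h and 161 ± 11.2 in WT 0 h. On the log2 scale it fell by 1.86 (SE 0.09) in the KO labels and fell by 1.80 (SE 0.09) in the WT labels. Biglycan (Bgn) fell by 1.67 in the WT labels (SE 0.07), and Comp, a substrate of Adamts7 and Adamts12, fell by 1.81 in the KO labels (SE 0.71) at levels below 1 CPM there. The basement membrane genes Nid2 and Lamb1 rose by 1.31 (SE 0.30) and 0.49 (SE 0.07) in the KO labels and by 0.68 (SE 0.29) and 0.42 (SE 0.07) in the WT labels. None of these lists had a called gene between the KO and WT labels at either time or in the interaction. Over all tested genes 1.6% were called at 2 h, 3.92% at 0 h and 0.133% in the interaction.

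The 24 members that did not pass the filter had 0 to 44 reads each over the 8 libraries and at most 12 in any library. Apart from those named above they were Mmp8, Mmp20, Mmp21, Mmp27, Adamts8, Adamts13, Adamts15, Adamts16, Adamts17, Adamts18, Adamts19, Adamtsl1, Adamtsl2 and Adamtsl3. The 8 reads of Adamts18, like those of Adamts3, came from KO 0 h replicate 2 alone. Mmp15, another membrane-type MMP, had 9 and 3 reads in KO 2 h, 6 and 12 in WT 2 h, 0 and 3 in KO 0 h, and 1 and 2 in WT 0 h. Mmp1b, a collagenase-like gene of the run on chromosome 9, had 5 and 4 reads in KO 2 h, 1 and 3 in WT 2 h, and none under the 0 h labels. Differences of such sizes were not tested, and absence of a transcript cannot be read from counts this low.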

How the data were processed

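Raw counts of reads per gene symbol, in whole numbers, were deposited for each of 8 libraries in 4 groups of 2. The submitters' processing notes name STAR 2.5.2b, HTSeq, bcl2fastq 2.15 and mm9, with their roles, the gene annotation and the use of strand not given in the sources used here. The 4 summary lines, 36.9 to 43.2% of reads, hold reads with several alignments apart from the genes and entered no library size or test.

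Tests used edgeR 4.0.16 (R 4.3.3): filterByExpr (minimum count 10, minimum total 15), TMM scaling, and 1 robust quasi-likelihood fit over all 8 libraries with 1 coefficient per label, 4 residual degrees of freedom and a biological coefficient of variation of 6.74%. Benjamini-Hochberg adjustment ran over all 12807 genes, and calls needed an adjusted p below 0.05. Alternatives were RLE factors, library size alone, DESeq2 1.42.0, no filter, 1 CPM in 2 libraries, the 4 libraries compared, a replicate block, and leaving out each library, after which the remaining library of that label takes the spread of the other labels. Members and lists were chosen with earlier results of these data known. Called members with a group mean of at least 5 CPM are given per library, those of 1 to 5 CPM by group, and from each list up to 2 called genes per direction. A gene that this rule names is not reported here.

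Promoters came from RefSeq (GRCm38.p6), where 36 of 51 members had an entry, and exon lengths from GENCODE M21.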

Additional observations from a re-analysis of the deposited data

How the results depend on the processing

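Of 38 called values of members, 33 kept direction and call under each alternative run, and no called value reversed. The 17 losses among 568 recomputed values concerned Mmp19 in both time comparisons and Mmp13, Mmp16 and Mmp23 in WT 2 h against WT 0 h, as given above. Between KO 0 h and WT 0 h, the count of members called was 0 as reported and 1 without the low-count filter (Adamtsl5, lower), and 0 to 4 on leaving out each library, with 0 to 4 lower. Between KO 2 h and WT 2 h leaving out each library gave 0 to 1, with 0 to 1 higher (Mmp9 without KO 2 h replicate 1), and for the interaction 0 to 1, with 0 to 1 higher (Timp1). The cause was not tested. Scaling by library size alone moved the share of higher calls over all genes to 61.4% in the KO labels, against 49.0% with TMM, and to 61.2% in the WT labels, against 49.2%. For KO 0 h against WT 0 h, 339 genes of all tested were called higher and 163 lower, against 275 and 221 with library size alone and 424 and 385 without the filter, and 533 and 540, 148 and 26, and 155 and 36 without KO 0 h replicate 1, WT 0 h replicate 1 and WT 0 h replicate 2. The interaction called 17 genes, against 33 in DESeq2, 113 without the filter, and 6 to 91 on leaving out each library.

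Same-numbered libraries did not deviate together (Pearson r across genes -0.0731 to 0.0130), and the labels give the numbers no shared batch. With the replicate block 19 members were called in KO 2 h against KO 0 h and 20 in WT 2 h against WT 0 h, and 0 in each other comparison, and over all genes KO 0 h against WT 0 h gave 245 higher and 77 lower. Depth limits the genes below 1 CPM, where 3 reads equal 0.138 to 0.210 CPM.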
